A study of Mus musculus with 12 samples.

Results

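Acute phase proteins are secreted by the liver into the blood during infection, injury or stress, and 10 genes that encode them were followed in single nuclei of mouse liver and of hepatocytes in culture. The genes were taken by their symbols from the 32285 genes of the deposited matrices, without a rule on their values but with earlier results of these data known. They were the serum amyloid A genes Saa1, Saa2, Saa3 and Saa4, the orosomucoid genes Orm1 and Orm2, and Lcn2, Hp, Hpx and Crp. Single-nucleus RNA sequencing covered 8 mice, each sampled as Liver, Cell Suspension and Primary Hepatocytes, which gave 24 samples. Liver was a piece of the median lobe cut after a first, calcium-free perfusion had cleared the blood. Cell Suspension was the liver after collagenase perfusion, straining and repeated spins at low speed. Primary Hepatocytes were living cells of the same isolation kept for 24 hours in collagen-coated wells. Per the study's methods they attached in a plating medium rich in serum and then stayed overnight in a medium with little serum that held insulin and the glucocorticoid dexamethasone. The cultured cells were then detached with trypsin and spun before freezing. The mice were wild type. Liver and Cell Suspension were neither kept in culture nor treated with trypsin, so that culture, its media, these hormones and the detachment cannot be told apart. The labels give the strain as C57BL6J, whereas the study's methods describe chow-fed male C57BL/6NTac mice of 10 to 12 weeks.

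In the acute phase response, interleukin 6 and related cytokines act on hepatocytes through receptors that share the gp130 chain and activate STAT3, and interleukin 1 and tumour necrosis factor act through NF-kB. C/EBP factors bind many of the responding promoters. Serum amyloid A and orosomucoid are the classic strongly induced products in mice, whereas C-reactive protein, the main acute phase protein of humans, responds only weakly in mice, and Saa4 is known as the constitutive member of its family. Albumin, transthyretin and other plasma proteins are made less during the response and are called negative acute phase proteins. These points are background, and the data below are RNA levels, not protein.

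The Saa genes form a cluster on chromosome 7, where Saa3 lies at chr7:46711998-46715700, Saa4 at chr7:46727998-46732603 and Saa1 at chr7:46740497-46742980, all on the minus strand, and Saa2 at chr7:46751790-46754313 on the plus strand (GRCm38, GENCODE vM21 gene models). Hpx is on the same chromosome at chr7:105591613-105600137 (minus strand). Orm1 at chr4:63344560-63348163 and Orm2 at chr4:63362449-63365878 (plus strand) flank Orm3. Lcn2 is at chr2:32384633-32388252 (minus strand), Hp at chr8:109575128-109579172 (minus strand) and Crp at chr1:172698055-172833031 (plus strand). Some members share sequence, which limits how reads can be assigned to them. Of the 31-base words in Saa1 transcripts, 46.0% also occur in Saa2 transcripts, and 27.5% of those of Orm1 occur in Orm2, so the split of UMIs within these pairs is uncertain. Saa1 and Saa4 shared 0 such words.

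Saa1 and Saa2 are printed together as the most alike pair, Saa3 and Saa4 as their neighbours with the opposite behaviours, and Orm2 as the orosomucoid gene with the larger change in culture. Each sequence is the stretch just upstream of the annotated start, read 5′ to 3′ on the gene's strand from the RefSeq promoter table of GRCm38.p6, without bases that lie in an annotated exon. The stretches are chr7:46742981-46743230 (minus) for Saa1, chr7:46751583-46751789 (plus) for Saa2, chr7:46715701-46715926 (minus) for Saa3, chr7:46732604-46732853 (minus) for Saa4 and chr4:63362199-63362448 (plus) for Orm2. Capitals mark matches to the letters GGG and CC with any 5 bases between them (NF-kB) or TTNNGNAA (C/EBP) on either strand, which stand side by side in Saa1.
Saa1: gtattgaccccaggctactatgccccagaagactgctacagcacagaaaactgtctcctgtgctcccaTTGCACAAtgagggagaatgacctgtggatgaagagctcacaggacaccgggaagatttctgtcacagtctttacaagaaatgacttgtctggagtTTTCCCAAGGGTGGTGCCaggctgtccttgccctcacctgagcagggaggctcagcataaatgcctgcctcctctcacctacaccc
Saa2: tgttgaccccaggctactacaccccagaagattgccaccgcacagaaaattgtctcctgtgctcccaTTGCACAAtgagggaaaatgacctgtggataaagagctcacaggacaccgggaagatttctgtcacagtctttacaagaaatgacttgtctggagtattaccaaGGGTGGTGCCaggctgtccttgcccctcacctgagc
Saa3: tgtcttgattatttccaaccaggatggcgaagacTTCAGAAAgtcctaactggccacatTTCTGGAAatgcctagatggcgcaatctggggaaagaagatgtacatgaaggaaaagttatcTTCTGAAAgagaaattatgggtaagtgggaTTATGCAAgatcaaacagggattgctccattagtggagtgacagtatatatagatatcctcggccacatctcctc
Saa4: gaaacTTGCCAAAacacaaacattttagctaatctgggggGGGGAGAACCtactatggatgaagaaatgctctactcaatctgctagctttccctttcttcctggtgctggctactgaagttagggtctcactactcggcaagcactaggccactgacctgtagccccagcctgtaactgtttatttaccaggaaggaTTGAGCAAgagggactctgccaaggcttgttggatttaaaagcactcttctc
Orm2: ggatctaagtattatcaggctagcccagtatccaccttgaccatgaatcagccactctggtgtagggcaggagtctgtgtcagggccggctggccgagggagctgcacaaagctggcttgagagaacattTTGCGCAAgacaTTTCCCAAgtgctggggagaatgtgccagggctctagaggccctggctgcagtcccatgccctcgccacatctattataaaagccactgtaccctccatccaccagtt
The Saa1 and Saa2 stretches were 89.9% identical over 207 compared bases, against 30.9% to 32.8% for the other pairs of Saa genes (best ungapped alignment of the printed stretches). Of the 10 genes, 8 had an entry in the promoter table (not Orm1 or Hp). Over the 250 bases before the start, C/EBP letters occurred in 8 of 8, NF-kB letters in 5 of 8 (Saa1, Saa2, Saa4, Lcn2 and Crp) and the letters TTCNNNGAA (STAT) in 0 of 8. These letters are common: C/EBP letters occurred in 36.9%, NF-kB letters in 45.4% and STAT letters in 7.18% of 27025 promoters of the same length. Saa4 held 1 NF-kB and 2 C/EBP matches, the same counts as Saa1, while Saa3 held 4 C/EBP matches and no NF-kB match. A match is a description of letters only.

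Levels are given as CPM, the UMIs of a gene per 1000000 UMIs in the hepatocyte nuclei of a sample, with spliced, unspliced and ambiguous UMIs added. Of 53467 nuclei in the authors' table, 42467 were taken as hepatocytes. Liver gave 15000 of them, Cell Suspension 12634 and Primary Hepatocytes 14833. Their UMIs per sample ranged from 6860168 to 29018248 in Liver, from 2065229 to 17389720 in Cell Suspension and from 9596129 to 20300379 in Primary Hepatocytes. All 7 hepatocyte markers were detected in each type, with a summed level of 11946 to 17588 CPM in Liver, 11462 to 17896 CPM in Cell Suspension and 2871 to 6483 CPM in Primary Hepatocytes. Stellate markers summed to 75.3 to 649 CPM in Primary Hepatocytes and to 19.2 to 45.1 CPM in Liver, endothelial markers to 52.3 to 71.5 against 26.0 to 41.1 CPM, and leukocyte markers to 43.7 to 59.6 against 9.96 to 22.4 CPM. Neutrophil markers are of interest because neutrophils carry Lcn2 protein. They summed to 1.29 to 2.60 CPM in Primary Hepatocytes, 0.350 to 1.43 CPM in Liver and 0.118 to 1.58 CPM in Cell Suspension. None of these lists had a marker at 0, and the part of other cell types in the results below was not tested.

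The samples were mixed 4 to a pool before the droplets were made, and 2 of the 6 pools held no Primary Hepatocytes. Only 2 Liver samples (mice 4 and 5) shared a pool with Primary Hepatocytes, and only 2 Cell Suspension samples (mice 6 and 7) did not. Barcodes of at most 100 UMIs outside the authors' table, a measure of free RNA, held Lcn2 at 0 and 4.07 CPM in the pools without Primary Hepatocytes and at 46.8 to 556 CPM in the others. For Saa1 these values were 4.07 and 4.095 CPM against 34.7 to 376 CPM. Free RNA and pool therefore move with the levels of several of these genes in Liver and Cell Suspension, and levels by kind of pool are given below for Saa1, Saa2, Saa3, Orm1, Orm2, Lcn2, Hp and Hpx. Barcodes were read within each of the 6 libraries, as 337 of 53128 barcodes were found in 2 or more libraries.

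In Primary Hepatocytes compared with Liver, 7 of the 10 genes were higher and 2 were lower, and Hp did not pass the test. Over all 26521 genes tested in the same fit, 27.4% were higher and 26.7% lower. The median log2 fold change was 2.68 for the 10 genes and 0.04 for the other genes. In Cell Suspension compared with Liver, 8 were higher and 0 lower, beside 7.69% higher and 13.8% lower of all genes, with medians of 1.79 and 0.01. With both types taken only from pools without Primary Hepatocytes, Orm1 and Orm2 alone were called, both higher. That fit called 3.86% of all genes higher and 6.25% lower. On the CPM scale Saa1, Saa2, Saa3, Orm2 and Lcn2 were also not shown above endothelial nuclei in Liver or Cell Suspension, as given below. In Primary Hepatocytes compared with Cell Suspension, 5 of the 10 genes were higher and 3 lower, beside 27.6% and 24.0% of all genes, with medians of 0.69 and 0.01. All 10 genes passed the filter on low counts. The tests were edgeR quasi-likelihood tests with Benjamini-Hochberg adjustment over all genes, and the log2 fold changes carry TMM scaling, which moves them below the ratio of CPM for Primary Hepatocytes. The comparisons share samples, so that their values are not independent of each other.

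**Figure D1:**
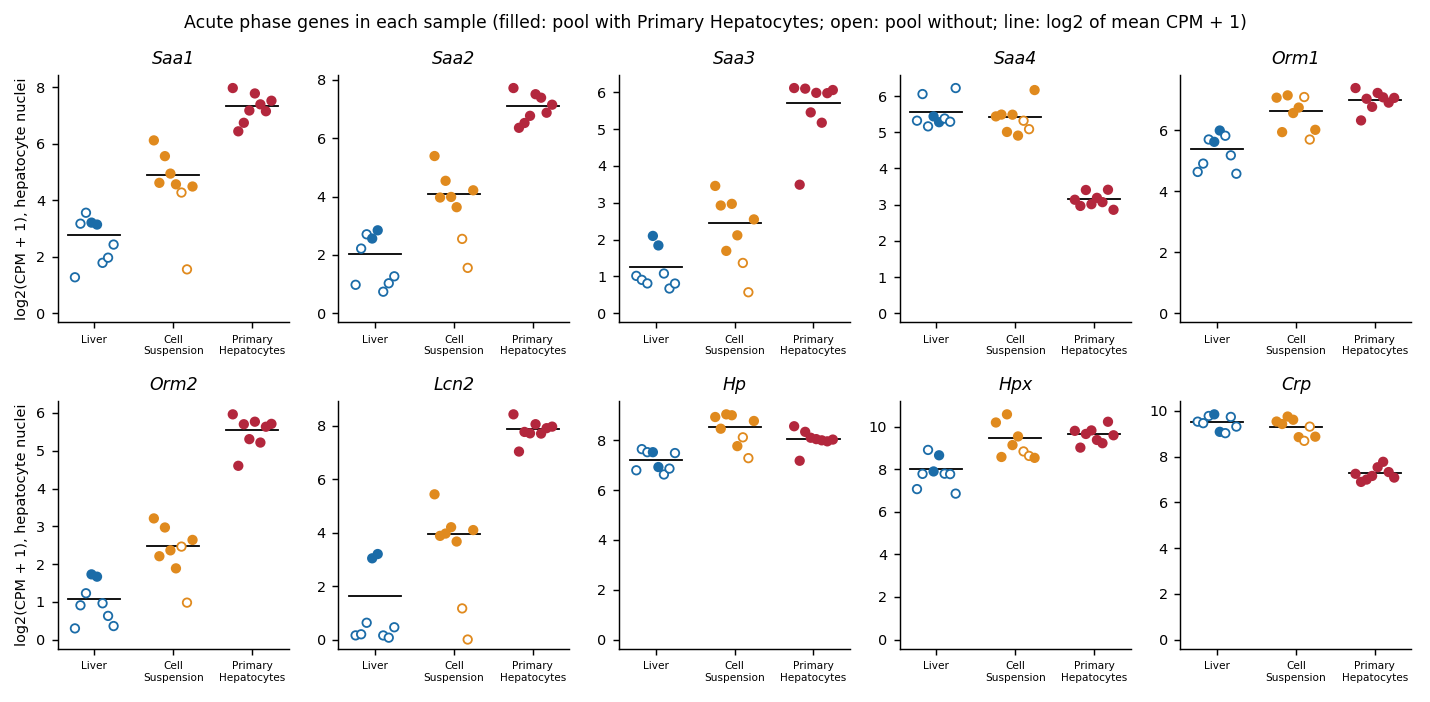
Level of each of the 10 genes in every sample as log2(CPM + 1) in hepatocyte nuclei, for Liver, Cell Suspension and Primary Hepatocytes. Filled points are samples from pools that hold Primary Hepatocytes, open points are samples from the other pools, and the line is the log2 of the mean CPM plus 1. Primary Hepatocytes and Liver do not overlap for any gene but Hp. The share of all genes without overlap is not given, so that this is not read as particular to these genes. By edgeR with TMM scaling, which the plotted levels do not carry, 27.4% of all genes were called higher and 26.7% lower in this comparison.

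**Figure D2:**
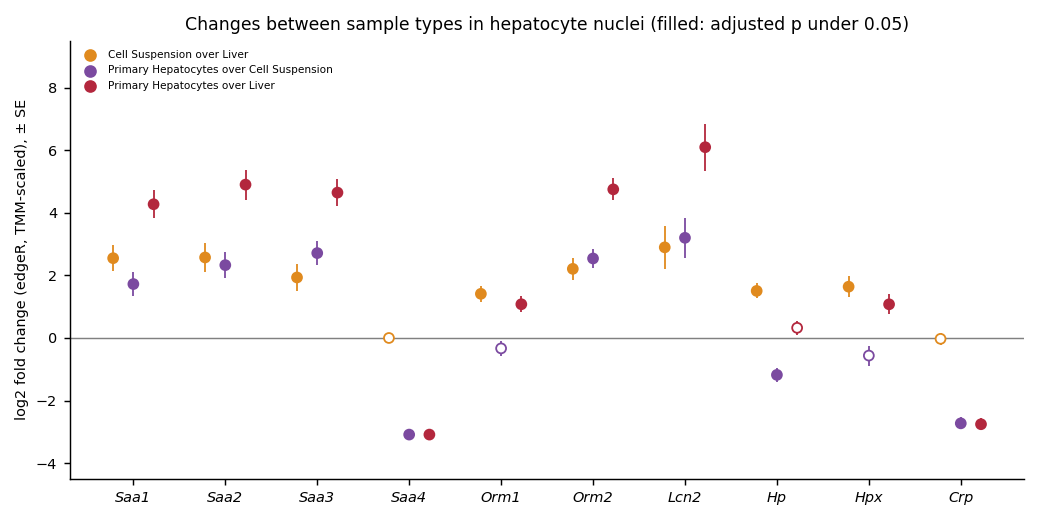
Log2 fold change with its standard error for each gene in the 3 comparisons of sample types, from the edgeR fit on hepatocyte nuclei. Filled points have an adjusted p under 0.05; Saa4 and Crp lie below 0 in both comparisons with Primary Hepatocytes and at 0 in Cell Suspension over Liver.

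Saa1 and Saa2, which encode the acute serum amyloid A proteins carried on high-density lipoprotein, were higher in Primary Hepatocytes than in both other types. Cell Suspension over Liver was called over all samples and not within the pools without Primary Hepatocytes. Saa1 was at 1.42, 6.11 and 10.8 CPM (lowest, median and highest of 8) in Liver, at 1.94, 23.1 and 68.7 CPM in Cell Suspension and at 86.1, 156 and 251 CPM in Primary Hepatocytes. The lowest cultured sample lay above the highest Cell Suspension sample, while Cell Suspension and Liver overlapped through the Cell Suspension sample of mouse 7. The Saa1 log2 fold change was 4.27 ± 0.44 (SE, n = 8 and 8, adjusted p = 9.1e-10, edgeR) in Primary Hepatocytes over Liver, 2.55 ± 0.42 (adjusted p = 2.8e-05) in Cell Suspension over Liver and 1.72 ± 0.39 (adjusted p = 0.000403) in Primary Hepatocytes over Cell Suspension. Saa2 ranged from 0.667 to 6.17 CPM in Liver, from 1.94 to 40.8 CPM in Cell Suspension and from 80.8 to 209 CPM in Primary Hepatocytes. Its log2 fold changes for the same comparisons were 4.90 ± 0.48, 2.57 ± 0.45 and 2.33 ± 0.42. With Liver and Cell Suspension taken only from pools without Primary Hepatocytes, Cell Suspension over Liver was 1.35 (adjusted p = 0.172) for Saa1 and 0.91 (adjusted p = 0.459) for Saa2. In Liver, Saa1 was at 7.82 and 8.25 CPM in the samples sharing a pool with Primary Hepatocytes and at 1.42 to 10.8 CPM in the others, and in Cell Suspension at 21.5 to 68.7 CPM against 1.94 and 18.4 CPM. Saa2 was at 4.90 and 6.17 against 0.667 to 5.52 CPM in Liver and at 11.4 to 40.8 against 1.94 and 4.85 CPM in Cell Suspension. Their mean levels in culture were 28.2 and 45.0 times those in Liver.

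Saa3 encodes a serum amyloid A that is also made outside the liver, by macrophages and fat cells among others. It was at 0.593, 0.948 and 3.29 CPM in Liver, at 0.484, 4.09 and 9.99 CPM in Cell Suspension and at 10.2, 62.2 and 68.4 CPM in Primary Hepatocytes. The cultured sample of mouse 2 was the lowest at 10.2 CPM, and the next was mouse 6 at 35.1 CPM. The log2 fold change was 4.65 ± 0.43 (adjusted p = 8.7e-11) over Liver and 2.71 ± 0.39 (adjusted p = 6.4e-07) over Cell Suspension. On the CPM scale cultured Saa3 was not shown above endothelial nuclei of the same samples. Means were 51.8 and 45.1 CPM (exact paired permutation p = 0.672), and its rise is not read as particular to hepatocytes. Cell Suspension over Liver was 1.93 ± 0.44 (adjusted p = 0.00133), a call that was lost with the pool as a covariate, at 0.97 (adjusted p = 0.102). Samples sharing a pool with Primary Hepatocytes lay above all others of their type, at 2.58 and 3.29 against 0.593 to 1.11 CPM in Liver and at 2.23 to 9.99 against 0.484 and 1.58 CPM in Cell Suspension. The part of free RNA in this was not tested.

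Lcn2 encodes lipocalin 2, which binds bacterial siderophores and so withholds iron. It had the largest log2 fold change of the 10 genes in Primary Hepatocytes over Liver, 6.10 ± 0.75 (adjusted p = 3.2e-08), and 3.20 ± 0.65 (adjusted p = 9.7e-05) over Cell Suspension. In culture it was at 129, 227 and 341 CPM, or 1541 to 6926 UMIs a sample. In Liver it was at 0.0494 to 0.544 CPM in the 6 samples from pools without Primary Hepatocytes, with 23 UMIs in all, and at 7.21 and 8.17 CPM in mice 4 and 5. In Cell Suspension it was at 11.7 to 42.1 CPM in the 6 samples from pools with Primary Hepatocytes, at 1.24 CPM in mouse 6 and at 0 of 2065229 UMIs in mouse 7, which allows up to 1.45 CPM. The samples therefore divided by pool within both types, without overlap, and the part of free RNA in this division was not tested. Cell Suspension over Liver was 2.90 ± 0.68 (adjusted p = 0.00206) over all samples and 2.07 (adjusted p = 0.121) with only the pools without Primary Hepatocytes. Leaving out mouse 5 moved it to 3.93, leaving out mouse 1 to 2.25, and leaving out mouse 5 moved Primary Hepatocytes over Liver to 7.04, with all calls kept.

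Orm1 and Orm2 encode orosomucoids, plasma glycoproteins that bind drugs and lipids. Orm2 was at 0.227, 0.910 and 2.31 CPM in Liver, at 0.968, 4.32 and 8.24 CPM in Cell Suspension and at 23.3, 49.9 and 61.4 CPM in Primary Hepatocytes. The cultured samples did not overlap with either of the other types, with log2 fold changes of 4.75 ± 0.35 (adjusted p = 6.3e-13) over Liver and 2.54 ± 0.32 (adjusted p = 4.3e-08) over Cell Suspension. Orm2 also divided by pool in Liver, at 2.17 and 2.31 CPM beside Primary Hepatocytes and 0.227 to 1.34 CPM elsewhere, and overlapped in Cell Suspension, at 2.69 to 8.24 and at 0.968 and 4.51 CPM. Orm1 was at 22.8, 41.7 and 62.7 CPM in Liver, at 50.8, 99.9 and 140 CPM in Cell Suspension and at 79.0, 131 and 166 CPM in Primary Hepatocytes. With the splicing states added and TMM scaling, the rise of Orm1 was smaller and came with isolation, at 1.41 ± 0.25 (adjusted p = 9.0e-05) in Cell Suspension over Liver and 1.08 ± 0.25 (adjusted p = 0.000453) in Primary Hepatocytes over Liver. Spliced UMIs alone gave means of 26.9 CPM in Liver, 41.0 CPM in Cell Suspension and 96.3 CPM in Primary Hepatocytes, so spliced Orm1 was highest in culture. Between Primary Hepatocytes and Cell Suspension Orm1 had a log2 fold change of -0.33 ± 0.25 (adjusted p = 0.278). That value was -0.63 (adjusted p = 0.0415) with the pool as a covariate, and the same covariate took Primary Hepatocytes over Liver to 0.53 (adjusted p = 0.187). By kind of pool Orm1 was at 48.2 and 62.7 CPM beside Primary Hepatocytes and 22.8 to 55.5 CPM elsewhere in Liver, and at 60.4 to 140 and at 50.8 and 135 CPM in Cell Suspension.

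Hp encodes haptoglobin, which binds free haemoglobin, and Hpx encodes hemopexin, which binds free haem. Both rose from Liver to Cell Suspension in 8 of 8 mice. With Liver and Cell Suspension taken only from pools without Primary Hepatocytes, neither rise was called. Nor was the fall of Hp from Cell Suspension to Primary Hepatocytes called in that fit, whose values are given below. Hp was at 97.7, 149 and 199 CPM in Liver, at 154, 394 and 525 CPM in Cell Suspension and at 143, 261 and 376 CPM in Primary Hepatocytes. It was higher in Cell Suspension than in Liver by 1.5 ± 0.24 (adjusted p = 1.7e-05) and lower in Primary Hepatocytes than in Cell Suspension by a log2 fold change of -1.18 ± 0.24 (adjusted p = 8.2e-05). Primary Hepatocytes over Liver was 0.32 ± 0.23 (adjusted p = 0.258), and it depended on the scale, with 0.85 (adjusted p = 0.00116) on library totals without TMM and -0.33 with the pool as a covariate. Hpx was at 115, 221 and 482 CPM in Liver, at 372, 511 and 1538 CPM in Cell Suspension and at 519, 794 and 1208 CPM in Primary Hepatocytes. Its log2 fold changes were 1.64 ± 0.33 (adjusted p = 0.00036) in Cell Suspension over Liver, 1.08 ± 0.32 (adjusted p = 0.00537) in Primary Hepatocytes over Liver and -0.56 ± 0.32 (adjusted p = 0.149) in Primary Hepatocytes over Cell Suspension. With the pool as a covariate Primary Hepatocytes over Liver was 0.35 (adjusted p = 0.527). In Cell Suspension, samples sharing a pool with Primary Hepatocytes were at 216 to 525 CPM for Hp and 372 to 1538 CPM for Hpx, and the other pair at 154 and 276 CPM for Hp and 396 and 459 CPM for Hpx. In Liver both kinds of pool overlapped, with Hp at 120 and 182 against 97.7 to 199 CPM and Hpx at 238 and 404 against 115 to 482 CPM.

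Saa4 and Crp fell in culture and did not pass the test between Cell Suspension and Liver. Saa4 was at 34.8, 39.8 and 73.6 CPM in Liver, at 28.99, 40.6 and 70.7 CPM in Cell Suspension and at 6.25, 7.59 and 9.64 CPM in Primary Hepatocytes. Its log2 fold change was -3.09 ± 0.17 both over Liver (adjusted p = 1.2e-15) and over Cell Suspension (adjusted p = 2.0e-15). Crp encodes C-reactive protein, a pentraxin that binds phosphocholine on microbes and damaged cells. It was at 519, 720 and 919 CPM in Liver, at 411, 660 and 860 CPM in Cell Suspension and at 118, 146 and 217 CPM in Primary Hepatocytes. Its log2 fold changes were -2.76 ± 0.19 (adjusted p = 2.1e-13) over Liver and -2.73 ± 0.19 (adjusted p = 3.3e-13) over Cell Suspension. For both genes every cultured sample lay below every sample of the other types. In Cell Suspension over Liver Saa4 had -0.00042 ± 0.16 (adjusted p = 1.0) and Crp -0.03 ± 0.18 (adjusted p = 0.945), values whose sign changed with the scaling. Saa4 thus went the other way from its neighbours Saa1, Saa2 and Saa3 in the same cluster.

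Levels within pools were compared as means of log2(CPM + 1). For Saa1, Saa2, Saa3, Orm1, Orm2 and Lcn2, Primary Hepatocytes exceeded Liver in 2 of 2 pools and Cell Suspension in 4 of 4 pools. Saa4 and Crp were lower in all 6 of these comparisons. Hp and Hpx exceeded Liver in 2 of 2 pools, by 0.58 to 1.26 and by 0.97 to 1.93. Hp was below Cell Suspension in 4 of 4 pools, and Hpx was above it in 3 of 4. These levels carry no TMM scaling, and the share of all genes with such directions was not computed. On library totals without TMM, 74.1% of calls over all genes were higher in Primary Hepatocytes over Liver and 79.8% over Cell Suspension. On the log2(CPM + 1) scale Orm1 differed from Cell Suspension by 0.073 to 0.48 within pools, the opposite direction from its TMM-scaled values above. In pool 4, however, its mean CPM was lower in Primary Hepatocytes, at 99.0 against 100.4 CPM in Cell Suspension. Its direction between these types thus depends on the scale. The Lcn2 difference was 4.66 and 4.67 on the log2(CPM + 1) scale against Liver of the same pool. Cell Suspension exceeded Liver in 3 or 4 of 4 pools for the 8 genes called higher. With Liver and Cell Suspension limited to pools without Primary Hepatocytes, a choice made after seeing the data, 9 genes were called in Primary Hepatocytes over Liver (7 higher and 2 lower) and 7 over Cell Suspension (5 higher and 2 lower), where Hp was lost at -0.19 (adjusted p = 0.662). Of all genes, that fit called 29.7% higher and 24.8% lower over Liver and 21.5% and 18.5% over Cell Suspension. Primary Hepatocytes and Liver then come from different pools, so that type and pool cannot be told apart in this fit. In Cell Suspension over Liver only Orm1 at 1.45 (adjusted p = 0.0112) and Orm2 at 2.30 (adjusted p = 0.0126) were called in that fit, beside 3.86% higher and 6.25% lower of all genes. It holds 2 Cell Suspension samples, and Hp was at 0.63 (adjusted p = 0.212) and Hpx at 0.91 (adjusted p = 0.132).

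The matrices separate UMIs of spliced, unspliced and ambiguous RNA, and nuclei hold much unspliced RNA. Over all genes the spliced share of UMIs had a median of 18.4% in Liver, which compares with 24.3% in Cell Suspension and 26.0% in Primary Hepatocytes. The log2 ratio of spliced to unspliced UMIs was tested for the 5 genes with at least 10 such UMIs in every sample (Saa4, Orm1, Hp, Hpx and Crp), and 12 of 15 comparisons were called (exact permutation test, 8 against 8, two-sided, Benjamini-Hochberg over 15). The same test, adjusted over 9570 genes and the 3 pairs of types, called 57.3% of all comparisons. In Primary Hepatocytes over Liver 4 of the 5 genes had a higher ratio, and 0 a lower one, beside 63.8% and 5.76% of all genes, which is no particular result for them. In Primary Hepatocytes over Cell Suspension 5 of 5 were higher, beside 15.2% higher and 21.2% lower of all genes, and in Cell Suspension over Liver 3 of 5 were lower and 0 higher, beside 3.48% lower and 62.5% higher of all genes. Orm1 differed most between isolation and culture. Its spliced share had a median of 67.4% in Liver, of 42.6% in Cell Suspension and of 75.2% in Primary Hepatocytes, and its log2 ratio was lower by 1.49 in Cell Suspension than in Liver in 8 of 8 mice (exact permutation p = 0.00295, adjusted 0.00554). It was then higher by 2.54 in Primary Hepatocytes than in Cell Suspension in 8 of 8 mice (exact permutation p = 0.000155, adjusted 0.000777). On the unspliced UMIs alone Orm1 was at 11.9 CPM in Liver, 50.3 CPM in Cell Suspension and 17.6 CPM in Primary Hepatocytes (means of 8), and on the spliced UMIs at 26.9, 41.0 and 96.3 CPM. Unspliced Orm1 was thus highest in Cell Suspension and spliced Orm1 in Primary Hepatocytes.

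Hp followed another course. Its median spliced share was 64.5% in Liver and 67.2% in Cell Suspension and reached 89.1% in Primary Hepatocytes, with a log2 ratio higher by 2.15 in culture than in Liver in 8 of 8 mice (exact permutation p = 0.000155, adjusted 0.000777). Cell Suspension and Liver differed by 0.04 (exact permutation p = 0.894). Spliced Hp alone was higher in culture than in Liver by a log2 fold change of 0.55 (adjusted p = 0.0242, edgeR), and unspliced Hp alone was lower, at -1.25 (adjusted p = 0.00231). Hpx had a lower ratio in Cell Suspension than in Liver by 0.50 (adjusted p = 0.0322), a call lost without mouse 1, 4, 7 or 8, where the difference was 0.37 to 0.49. Its ratio was higher by 0.82 in Primary Hepatocytes than in Cell Suspension (adjusted p = 0.000932, exact permutation test). Over the 9570 genes with enough UMIs, the median difference of this ratio was 0.63 for Primary Hepatocytes over Liver, -0.10 for Primary Hepatocytes over Cell Suspension and 0.72 for Cell Suspension over Liver, so that the falls of Orm1, Hpx and Saa4 from Liver to Cell Suspension ran against the median of all genes.

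The median unspliced share of Crp was 96.1% in Liver and 96.3% in Cell Suspension, and Primary Hepatocytes had 91.3%. The annotation holds a long Crp transcript model of 134976 bases beside a short one of 1908 bases, and a pseudogene lies within the long model on the same strand, so that UMIs counted as unspliced Crp can come from a long stretch of sequence. Spliced Crp alone was at 2.26 CPM in Liver and 1.07 CPM in Primary Hepatocytes. Its ratio was higher in Primary Hepatocytes than in Liver by 1.10 (exact permutation p = 0.00295, adjusted 0.00554), and the smaller difference from Cell Suspension, 0.81 (adjusted p = 0.034), was lost when samples were paired by mouse (exact permutation p = 0.0859, adjusted 0.107) or when any of mice 1, 2, 4, 5, 6 and 7 was left out, with 0.59 to 0.81 then. Pairing by mouse also ended the Orm1 call in Primary Hepatocytes over Liver (difference 1.05, exact permutation p = 0.0547, adjusted 0.0746). Saa1 and Saa2 were almost wholly spliced, with 96.9% and 95.9% in culture, and their unspliced UMIs were too few to test. The ambiguous share of Saa1 was 27% in Cell Suspension and 3.0% in Primary Hepatocytes.

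**Figure D3:**
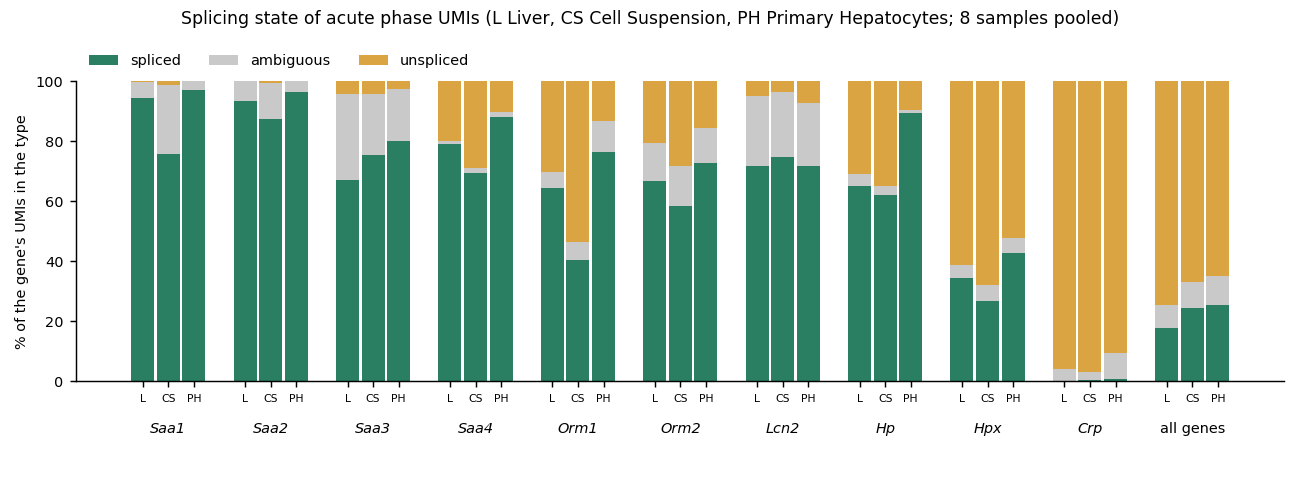
Share of UMIs that are spliced, unspliced or ambiguous for each gene and for all genes, in percent, pooled over the 8 samples of Liver (L), Cell Suspension (CS) and Primary Hepatocytes (PH). Orm1 is 40.3% spliced in Cell Suspension and 76.4% in Primary Hepatocytes, and Crp is over 90% unspliced in all types.

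Endothelial nuclei of the same samples gave a second measure of background, since most of these proteins are known as products of hepatocytes. On the CPM scale hepatocyte nuclei were higher in 18 of 30 comparisons and lower in 1 (exact paired permutation test over 8 samples, two-sided, Benjamini-Hochberg over 30). Over 26521 genes the same test, adjusted over all genes and types, called 13.8% higher and 10.2% lower. By type these shares were 15.4% and 15.9% in Liver, 10.7% and 9.4% in Cell Suspension and 15.2% and 5.41% in Primary Hepatocytes. Saa4, Orm1, Hp, Hpx and Crp were higher in hepatocytes of both Liver and Cell Suspension in 8 of 8 samples (exact permutation p = 0.00781 each, the smallest this test can give). The other 5 were not. The comparison called lower was Orm2 in Cell Suspension, at 4.53 ± 2.29 CPM in hepatocyte and 8.31 ± 4.33 CPM in endothelial nuclei (higher in hepatocytes in 1 of 8 samples, exact permutation p = 0.0234, adjusted 0.037). That call rested on 1 to 8 endothelial UMIs a sample. It was lost without mouse 1, 2, 3, 4, 6, 7 or 8 (exact permutation test, adjusted p of 0.052 to 0.074). Lcn2 in Cell Suspension was at 14.6 ± 12.9 CPM (SD, n = 8) in hepatocyte nuclei and 34.7 ± 36.3 CPM in endothelial nuclei and was higher in hepatocytes in 1 of 8 samples, which was not called (exact permutation p = 0.0469, adjusted 0.0703). Lcn2, Orm2, Saa1, Saa2 and Saa3 were therefore not shown above the level of endothelial nuclei in Liver and Cell Suspension on this scale, and their differences between these types are not read as expression by hepatocytes. In Primary Hepatocytes 8 genes were higher in hepatocyte than in endothelial nuclei, all but Saa3 and Saa4. Lcn2 was at 231 ± 60.0 against 164 ± 53.6 CPM (8 of 8 samples), and Hpx at 799 ± 216 against 340 ± 88.6 CPM (8 of 8 samples). Saa3 was at 51.8 ± 20.8 against 45.1 ± 23.6 CPM and higher in hepatocytes in 5 of 8 samples (exact permutation p = 0.672, adjusted 0.747). In culture the calls of Saa1, Saa2 and Hp were lost without any of several mice, at an adjusted p of up to 0.074, and Saa1 was at 0.66 instead of 1.47 without mouse 7.

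Endothelial nuclei held fewer UMIs, with medians of 3141.5, 1506.5 and 1377 UMIs per nucleus in the 3 types against 7695.5, 3643 and 6419 in hepatocyte nuclei. Counted per nucleus, a scale added after seeing the data, hepatocyte nuclei were higher in 25 of 30 comparisons, including all 10 genes in Primary Hepatocytes. On this scale the deeper hepatocyte nuclei were higher for 51.1% of all genes in Liver, for 32.9% in Cell Suspension and for 63.6% in culture, and lower for 7.28%, 5.02% and 2.31%, so that the count is not read as particular to these genes. Saa1 in Liver was at 0.0636 UMIs per hepatocyte nucleus and 0.0248 per endothelial nucleus (exact permutation p = 0.0156, adjusted 0.0195). Lcn2 in Cell Suspension was at 0.0907 against 0.0834 UMIs per nucleus (exact permutation p = 0.516), so that neither scale showed it above endothelial nuclei there. After thinning each nucleus to 1000 UMIs, 18.9% of cultured hepatocyte nuclei had an Lcn2 UMI (median of 8 samples) against 15.2% of cultured endothelial nuclei, and without thinning 60.0% against 23.9%. The thinned shares in Liver were 0.0504% and 0%. For Crp the thinned shares of hepatocyte nuclei were 43.3% in Liver and 11.2% in Primary Hepatocytes, against 5.16% and 6.15% of endothelial nuclei. Thinned shares left out nuclei with fewer than 1000 UMIs, which kept 14492 of 15000, 12160 of 12634 and 14750 of 14833 hepatocyte nuclei and 2312 of 2474, 791 of 1152 and 1328 of 1809 endothelial nuclei.

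**Figure D4:**
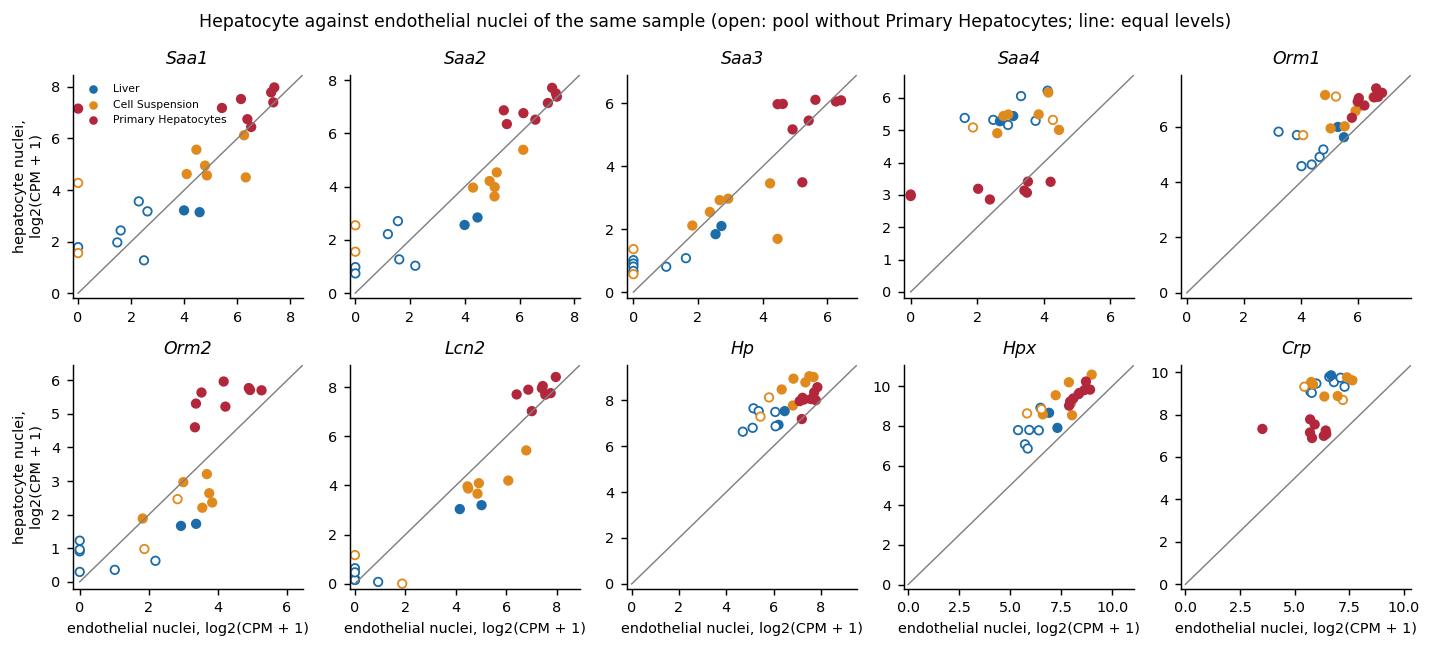
Level of each gene in hepatocyte nuclei against endothelial nuclei of the same sample, 1 point a sample, by sample type, with the line of equal level. Points of Crp and Hpx lie above the line in every sample, and Lcn2 of Cell Suspension lies above it in 1 sample of 8; open points are samples from pools without Primary Hepatocytes.

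Liver lobules are zoned, and hepatocytes near the portal vein and near the central vein express different genes. Nuclei of Liver and Cell Suspension were ranked by lists of periportal and pericentral genes, none of them a member, and the 33.3% of nuclei at either end were compared after thinning to 1000 UMIs. No gene passed the adjusted threshold among 20 exact tests, with 3 in Liver and 4 in Cell Suspension at an unadjusted p under 0.05. Of 15336 genes with at least 10 thinned UMIs in Liver, 9.18% were higher periportal and 9.12% higher pericentral at that unadjusted p, and of 14507 in Cell Suspension 9.7% and 9.09%. With 4 of the 20 tests at the smallest p that 8 samples allow, these would have been called, and 3 reached it. More tests at a slightly larger p could also have given calls. Hpx in Liver was at 375 ± 222 CPM in periportal and 150 ± 44.7 CPM in pericentral nuclei and was higher in 8 of 8 samples (exact permutation p = 0.00781, adjusted 0.0521). Orm1 in Liver was at 57.1 ± 18.3 and 32.5 ± 9.76 CPM, also in 8 of 8 samples with the same p. Hpx in Cell Suspension was at 713 ± 398 and 504 ± 293 CPM, in 8 of 8 samples with the same p, which is the smallest that 8 samples allow. The other Cell Suspension tests under 0.05 were Orm1, at 111 ± 45.8 periportal and 80.1 ± 39.9 CPM pericentral (6 of 8 samples, exact permutation p = 0.0391), and 2 genes with higher pericentral levels. Lcn2 was at 17.7 ± 18.0 and 26.9 ± 26.3 CPM and was higher periportal in 0 of 8 samples (exact permutation p = 0.0156), and Saa3 at 2.91 ± 4.31 and 9.16 ± 7.98 CPM, higher periportal in 1 of 8 (exact permutation p = 0.0312), with 14 and 41 UMIs in all. Saa2 in Liver was at 4.06 ± 4.28 periportal and 3.10 ± 4.68 CPM pericentral (exact permutation p = 0.0469). Without thinning, Orm1, Hp and Hpx were called in Liver and Orm1 in Cell Suspension (adjusted p = 0.0391 each, exact test), beside 9.95% of all genes called higher periportal and 9.68% higher pericentral in Liver and 7.04% and 6.51% in Cell Suspension. Pericentral nuclei were the deeper in 8 of 8 Liver samples and periportal nuclei in 7 of 8 Cell Suspension samples, and the part of depth in the unthinned values was not tested.

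The levels of Saa4 and Crp in Cell Suspension were correlated with those in Liver of the same mouse, as were many other genes. A positive r with an unadjusted exact permutation p under 0.05 was found for 2 of the 10 genes and for 39.1% of 8722 genes, whose median r was 0.60. Saa4 had a Pearson r of 0.84 (exact permutation p = 0.00109, adjusted 0.0109 over 10 genes) and a Spearman rho of 0.95 (exact permutation p = 0.00114) over 8 mice. Without the 2 mice farthest from the median r was 0.77. Mouse 8 had the highest level in both types, at 73.6 and 70.7 CPM, and without it r was 0.62 (exact permutation p = 0.0698, adjusted 0.349). Crp had an r of 0.90 and a rho of 0.90 (exact permutation p = 0.00456 each, adjusted 0.0228), and 0.75 without the 2 farthest mice. Its call was lost without mouse 2, 3, 4, 6 or 8, at r of 0.85 to 0.92 and an adjusted p of 0.0556 to 0.103. Hpx had an r of 0.45 (exact permutation p = 0.258) and of 0.86 without mouse 1 (adjusted 0.00397), but of -0.26 without the 2 mice farthest from the median in Liver, so that its value rests on single mice. The Liver and Cell Suspension samples of a mouse came from the same pool in mice 6 and 7 and from different pools in the others, and Saa1, Saa2, Saa3, Orm1, Orm2, Lcn2 and Hp had no called correlation, with r between -0.16 and 0.56. Without the 2 farthest mice r moved from 0.17 to 0.88 for Saa1 and from 0.47 to 0.84 for Orm1.

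Of the 14833 cultured hepatocyte nuclei 14760 fell into 4 of the authors' clusters and 73 into others, and the 4 clusters are described here without a test. Cluster 0 (5961 nuclei) was led by Ankrd1, Ccn2, Sprr1a and Tpm2, cluster 1 (5846 nuclei) by Plcl1 and Slc39a8, cluster 14 (1682 nuclei) by Gm47507 and Grm4, and cluster 17 (1271 nuclei) by the heat shock genes Hspa1b and Hspa1a. Lcn2, Hp and Hpx were highest in cluster 0 in 7 of 8 samples and lowest in cluster 17 in 8 of 8. Lcn2 had means of 282 ± 62.8, 206 ± 56.8, 163 ± 54.6 and 91.0 ± 37.8 CPM in clusters 0, 1, 14 and 17 (SD, n = 8 samples), and Hpx of 1084 ± 362, 576 ± 112, 405 ± 80.0 and 308 ± 46.5 CPM. Orm2 was lowest in cluster 17 in 8 of 8 samples, at 12.8 ± 5.04 CPM against 43.1 to 52.8 CPM in the others. Crp was lowest in cluster 1 in 8 of 8 samples, at 85.1 ± 37.6 CPM, and was at 199 ± 22.4 CPM in cluster 0 and 219 ± 75.5 CPM in cluster 17. Saa1 was at 164, 161, 147 and 146 CPM, with neighbours in this order that differ by less than their SD. Saa2 lay between 125 and 135 CPM and Orm1 between 88.9 and 133 CPM. Median depth fell in the same order as Lcn2 and Hpx, from 7372 UMIs per nucleus in cluster 0 to 6037, 5703.5 and 4871, and its part in their order was not tested. Cluster 8, which was not taken as hepatocytes, held 1450 cultured nuclei of lower depth, with a median of 2565 UMIs, and with higher mean levels of most of the genes, such as Saa1 at 490 ± 292 CPM and Lcn2 at 566 ± 294 CPM.

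**Figure D5:**
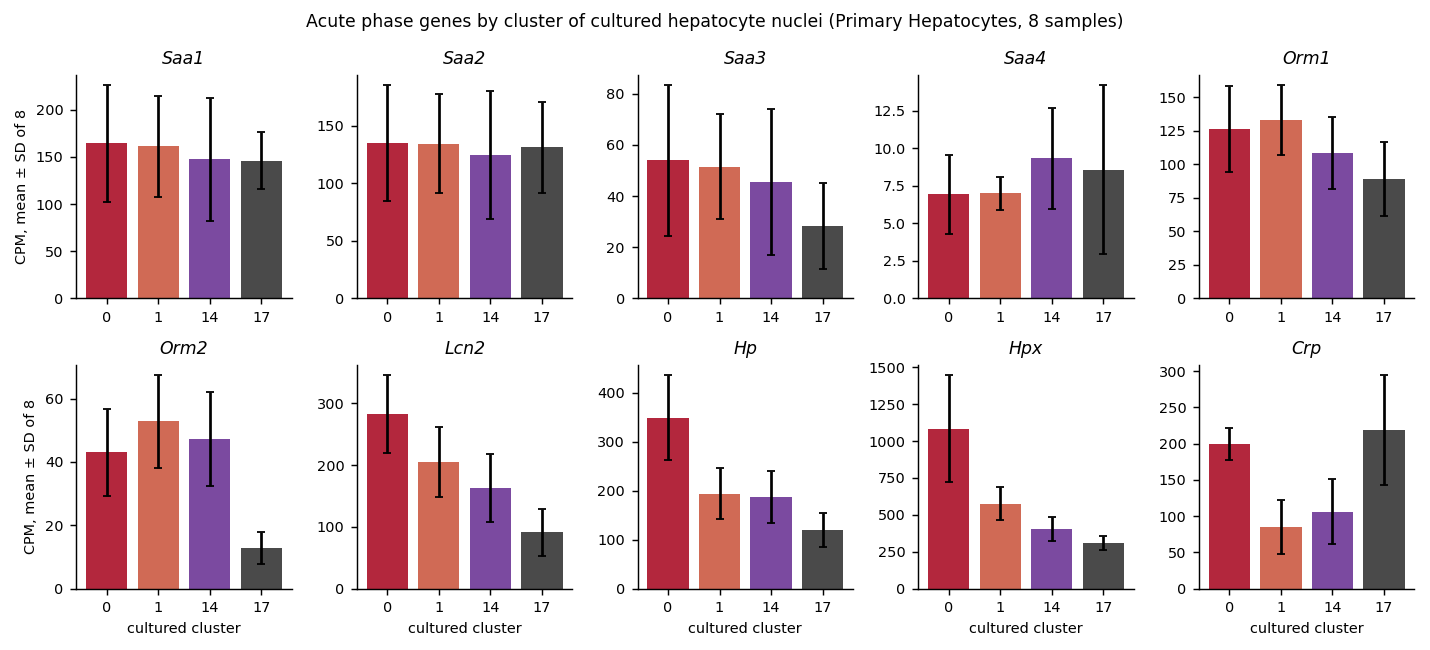
Mean level in CPM with SD over the 8 Primary Hepatocytes samples for each gene in cultured clusters 0, 1, 14 and 17. Lcn2, Hp and Hpx descend from cluster 0 to cluster 17, Crp is lowest in cluster 1, and Saa1 and Saa2 are nearly level.

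Other genes of the response were taken as lists by function. Of 21 other acute phase genes, 8 were higher and 7 lower in Primary Hepatocytes over Liver, and 10 were higher and 0 lower in Cell Suspension over Liver. All genes gave 27.4% higher and 26.7% lower in the first comparison and 7.69% and 13.8% in the second. The metallothionein genes Mt1 and Mt2, which encode metal-binding proteins, had log2 fold changes of 5.14 ± 0.64 and 6.10 ± 0.64 over Liver (adjusted p = 3.5e-08 and 1.4e-09). Orm3, the third orosomucoid gene, rose by 2.70 ± 0.38 to a mean of 12.1 ± 3.98 CPM. Hamp, which encodes the iron hormone hepcidin, fell from 229 ± 104 CPM in Liver to 14.5 ± 4.86 CPM in culture, a log2 fold change of -4.53 ± 0.33. The list thus moved in both directions in culture, with a median of 0.05 against 0.04 over all genes.

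Of 9 negative acute phase genes 9 were lower in Primary Hepatocytes than in Liver and 0 higher, beside 26.7% lower and 27.4% higher of all genes, with a median log2 fold change of -2.09. The summed hepatocyte markers also fell, from a median of 14802 CPM in Liver to 3846 CPM in Primary Hepatocytes. The count is therefore not read as particular to negative acute phase genes. Ttr, which encodes transthyretin, was at -3.38 ± 0.21, and Serpina6, which encodes the corticosteroid-binding globulin, was at -4.87 ± 0.29. Ahsg, which encodes fetuin A, was at -2.99 ± 0.18, and Serpinc1, which encodes antithrombin, at -4.1 ± 0.14. In Cell Suspension over Liver 3 of the 9 were higher and 1 lower, beside 7.69% and 13.8% of all genes.

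Of 16 cytokine receptors and signalling genes 3 were higher and 5 lower in Primary Hepatocytes than in Liver, shares near the 27.4% and 26.7% of all genes. Osmr, which encodes the oncostatin M receptor, rose from 1.13 ± 0.39 to 83.7 ± 40.5 CPM (log2 fold change 5.58 ± 0.28, adjusted p = 1.3e-16). Lifr, which encodes the receptor of leukaemia inhibitory factor, fell from 1141 ± 902 to 53.8 ± 12 CPM, by a log2 fold change of -5.00 ± 0.47. Il1rap, an interleukin 1 receptor chain, was at -4.32 ± 0.13 and Tnfrsf1a, a receptor of tumour necrosis factor, at -0.83 ± 0.15. Of 11 transcription factors of the response 6 were higher and 4 lower, beside the same shares of all genes. Cebpd (C/EBP delta) rose by 3.11 ± 0.22 over Liver and by 2.97 ± 0.22 already in Cell Suspension, with 0.13 ± 0.20 (adjusted p = 0.608) between the later steps. The NF-kB genes Nfkb2 and Relb were higher in Primary Hepatocytes than in Liver by 3.05 ± 0.26 and 4.68 ± 0.26, and Onecut1, which encodes a liver factor, was lower by a log2 fold change of -4.89 ± 0.98. Of 8 ligand genes tested, 4 were higher and 0 lower, beside 27.4% higher and 26.7% lower of all genes. Clcf1, a gp130 cytokine, rose from 0.587 ± 0.199 to 11.6 ± 1.75 CPM. The other called ligands, Tnf, Lif and Il11, stayed low, with means of 0.253, 0.980 and 1.66 CPM in culture. Of 6 scavenger receptors and partners 1 was higher and 2 lower, beside the same shares of all genes. Hmox1, the haem oxygenase, rose by 5.72 ± 0.41. Lrp1, the receptor of the haem and hemopexin complex, and Scarb1 were at -2.33 ± 0.12 and -2.22 ± 0.15.

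As a description of how samples vary within a type, each gene's deviations of log2(CPM + 1) from the mean of its sample type were set against those of 8722 genes over 24 samples. The gene most like Saa1 was Saa2 (Pearson r = 0.93), followed by Mt2 (0.88) and Orm2 (0.83), and Saa2 was most like Saa1, Mt2 (0.90) and Lcn2 (0.87). Orm2 was most like Saa1 (0.83), Saa2 (0.80) and Lcn2 (0.77). Saa1 and Saa2 share transcript sequence, which by itself can tie their UMIs. Lcn2 was most like Pkm (0.92), Gsta1 (0.91) and Creb5 (0.89), Saa3 like Cpe (0.85), Lcn2 (0.79) and Iqgap1 (0.78), and Hp like Saa1 (0.78), Hmox1 (0.76) and Usp9x (0.75). Orm1 was most like Sppl2a (0.84), Fam135a (0.82) and Orm2 (0.77). Saa4 was most like Ppp2r5e (0.86), Ptges (0.82) and Zbtb1 (0.82), Hpx like Snx13 (0.86), Sat1 (0.84) and Dstn (0.82), and Crp like Klf12 (0.88), Scamp1 (0.84) and Nt5c3 (0.83), with none of the 10 genes among them. The 24 samples share pools and mice, which these values do not separate.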

How the data were processed

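Single-nucleus RNA libraries of 6 pools were sequenced, each pool with 4 hashtagged samples of 8 mice. The authors converted the reads with bcl2fastq 2.19.0 and quantified them with Salmon alevin, and deposited raw counts, as UMIs of every gene in every barcode, split into spliced, unspliced and ambiguous ones. The deposited table of nuclei, from which the authors had removed doublets by hashtag and by a doublet caller, gave each nucleus its sample, cluster and cell type. The label CD2 was taken for mouse 2 of Cell Suspension. The hashtag matrices were not used.

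Hepatocyte nuclei were those the authors named hepatocytes together with cultured clusters 0, 1, 14 and 17. The 3 splicing states were added and summed per sample, and edgeR 4.0.16 (R 4.3.3) tested genes whose counts over the 24 samples summed to at least 10 (TMM, quasi-likelihood, sample type only, all sample types in 1 fit, Benjamini-Hochberg threshold of 0.05), with DESeq2 1.42.0 as an alternative. TMM factors were 1.24 to 1.49 in Primary Hepatocytes and 0.742 to 1.01 in the other types. Printed CPM do not carry them. Without them the median of all genes moved by 0.53 on the log2 scale in Primary Hepatocytes over Liver, by 0.68 over Cell Suspension and by -0.15 in Cell Suspension over Liver. In simulated data for Primary Hepatocytes over Liver (26184 genes), 83% of 100 genes changed 2-fold and 99% of 100 changed 4-fold were recovered, with 10 false calls. The changed genes all had a mean of at least 1 CPM. The simulation held no pool or mouse effect and far fewer changed genes than were called here. It therefore does not show how the tests behave on these data. Exact permutation tests used Python 3.11.15 (pseudocounts of 1 CPM, and of 0.5 UMI for splicing ratios). The interval or limit behind a count covers counting error only. Replicates are mice, and same-numbered samples come from the same animal. Liver and Cell Suspension of a mouse deviated together (r of 0.348 to 0.846), which Primary Hepatocytes did not (r of -0.145 to 0.111).

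The exact tests of splicing, of hepatocyte against endothelial nuclei, of zones and of Liver against Cell Suspension by mouse were also run over all genes, or over those with enough UMIs, to give the share called among them. The genes and lists were chosen with earlier results of these data known. From each list of other genes at most 4 were named, the called genes with the largest absolute log2 fold change in Primary Hepatocytes over Liver and a mean of at least 10 CPM in a sample type. The 3 genes most like each member were taken among genes of at least 10 CPM. Alternatives with cluster 8, with pools without Primary Hepatocytes, without the Cell Suspension sample of mouse 7, on library totals and per nucleus were added after seeing the data.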

Additional observations from a re-analysis of the deposited data

Results flagged for a closer look

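In 2 of 30 groups of 8 samples, each a gene in a sample type, the highest sample stood far from the others. Saa4 in Cell Suspension was at 70.7 CPM in mouse 8, and the next sample was at 43.9 CPM. The Liver sample of that mouse was also the highest of its type, at 73.6 CPM. Lcn2 in Cell Suspension was at 42.1 CPM in mouse 1, and the next sample was at 17.4 CPM. That sample was the only Cell Suspension sample in a pool with 3 Primary Hepatocytes samples, where free RNA held Lcn2 at 556 CPM, and the part of free RNA was not tested. Chance alone gives such a gap in about 1 of 20 groups.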

How the results depend on the processing

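Across 126 alternative counts of calls 117 stayed within 1.5 times the reported count, and of 750 alternative log2 fold changes of single genes 691 kept their direction and side of the threshold, 34 changed direction, 16 lost a call and 9 gained it. The 117 include the zone counts with a mouse left out, which carry no information on stability, as stated below. The count of calls was 9 in Primary Hepatocytes over Liver, 8 in Primary Hepatocytes over Cell Suspension and 8 in Cell Suspension over Liver when any mouse was left out. With the mouse as a replicate block the counts were also 9, 8 and 8, and of the splicing calls 10 of 12 remained; the block changed no other call. Cell Suspension over Liver had 2 calls with only the pools without Primary Hepatocytes. Without thinning, 3 genes in Liver and 1 in Cell Suspension differed by zone. On unspliced UMIs, 1 gene was correlated between Liver and Cell Suspension. Leaving out a mouse gave 10 to 12 splicing calls, 15 to 18 comparisons above endothelial nuclei and 0 to 3 correlations. The 0 zone calls in Liver and in Cell Suspension without a mouse say nothing about stability. Calls would need 7 of the 20 exact tests at the smallest p of 7 mice, 0.0156, or more at a larger p. On unspliced UMIs Primary Hepatocytes over Cell Suspension turned to -3.02 for Saa1 (8 UMIs against 27 over all samples) and -1.66 for Saa2 (6 against 8), and Hp over Liver to -1.25; with the pool as a covariate Hp was at -0.33. Orm1 in Primary Hepatocytes over Cell Suspension turned to 0.65 on spliced, 0.60 on spliced and ambiguous UMIs and 0.37 on library totals, and Hpx to 0.14, 0.043 and 0.18 there and to 0.42 with pools without Primary Hepatocytes. In Cell Suspension over Liver, neither called, Saa4 turned to 0.076 with RLE, 0.074 with filterByExpr, 0.075 with DESeq2, 0.59 on unspliced UMIs, 0.057 thinned, 0.0065 with nuclei of at least 1000 UMIs, 0.0079 with cultured clusters only, 0.12 over all nuclei, 0.0045 with the replicate block, 0.052 without the Cell Suspension sample of mouse 7 and 0.0022 to 0.076 without mouse 2, 5, 6, 7 or 8 (from -0.057 over all mice left out). Crp turned to 0.050 with RLE and with DESeq2, 0.048 with filterByExpr, 0.12 on unspliced UMIs, 0.027 thinned, 0.090 over all nuclei and 0.013 to 0.036 without mouse 7 or 8 (from -0.080 over all). The cause of these changes was not tested. On library totals 74.1% of calls over all genes were higher in Primary Hepatocytes over Liver (50.7% with TMM), 79.8% over Cell Suspension (53.5%) and 18.5% in Cell Suspension over Liver (35.8%), a share that was 47.1% with RLE, 49.0% with DESeq2 and 45.8% with filterByExpr. The Cell Suspension sample of mouse 7, with 2065229 UMIs, limits what can be said of genes near 1 CPM.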

Other observations

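In culture, the 77 nuclei of Primary Hepatocytes that the authors named Kupffer cells, the resident macrophages of the liver, held 79 Saa3 UMIs of 220730, or 358 CPM (95% Poisson interval 283 to 446, counting error only), found in 7 of 8 samples. Hepatocyte nuclei pooled over the same samples held Saa3 at 53.6 CPM, stellate nuclei at 42.1 CPM (27 to 62.7) and cluster 8 nuclei at 134 CPM. Free RNA of the pools with Primary Hepatocytes held it at 5.20 to 81.7 CPM. Lcn2 in the same 77 nuclei was at 331 CPM (259 to 416), beside 242 CPM in hepatocyte, 218 CPM in stellate and 180 CPM in endothelial nuclei. It was at 335 CPM in 10 cultured leukocyte nuclei, at 632 CPM in cluster 8 nuclei and at 46.8 to 556 CPM in free RNA of these pools. The 77 nuclei held all 7 Kupffer markers, summed to 2143 CPM against 6021 CPM in Liver Kupffer nuclei and 10.9 CPM in cultured hepatocyte nuclei. They also held hepatocyte RNA, with 7 hepatocyte markers at 2863 CPM and Hpx at 535 CPM. In Liver, Kupffer nuclei held 5 Saa3 UMIs, or 1.68 CPM. The sums pool samples and were not tested between cell types, and the part of free RNA or of nuclei assigned to the wrong sample in them was not tested.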
